A study of Homo sapiens with 4 samples.

Results

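Mitochondrial ribosomal proteins are the protein subunits of the ribosome that works inside mitochondria. The genes described here were the coding genes named MRPL or MRPS with a number, plus DAP3, and 78 of the 25679 genes in the deposited tables met that rule. RNA held on streptavidin beads was sequenced from DU-145, an established human prostate cancer cell line. For the 2 biotin libraries, miR-26a duplexes with biotin at the 3′ end were mixed, one kind with thiouridine at position 7 and the other at position 17, and given to the cells. For the 2 untagged libraries, the duplex had no tag. Both groups received 60 nM of duplex 24 h after seeding and ultraviolet light of 365 nm at 2 J/cm2, and their RNA spent 4 h with the beads, so added miR-26a and irradiation were shared. Biotin and thiouridine came and went together, and their effects cannot be told apart. The submitters describe 2 biological replicates per group. The question was which transcripts the tagged microRNA brings onto the beads beyond those that stay there anyway.

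The mitochondrial ribosome translates the few membrane proteins of the respiratory chain that are encoded in mitochondrial DNA. Its ribosomal RNAs are made inside the organelle, while all of its proteins are encoded in the nucleus, translated in the cytosol and imported. Many subunits descend from bacterial ribosomal proteins, and others are found only in mitochondria. A microRNA such as miR-26a pairs with mRNAs mainly through its seed, and the biotin tag allows RNAs cross-linked to it to be collected. The mature miR-26a is shown because its seed defines the site searched in the transcripts, with nucleotides 2 to 8 in capitals (RefSeq, GRCh38.p14).
hsa-miR-26a-5p: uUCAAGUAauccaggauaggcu

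Values were FPKM (fragments scaled to transcript length and to mapped fragments) summed over the transcripts of a gene. From the ratio of read coverage to FPKM, depth was estimated at 17560000 and 23640000 mapped reads in biotin and 16030000 and 17830000 in untagged libraries. Of the 78 genes, 74 reached 1 FPKM in at least 2 libraries and were tested. Their median level was 12.8 and 12.3 FPKM in the biotin libraries and 16.4 and 18.9 FPKM in the untagged libraries. Epithelial markers of the line (6 of 6 at 1 FPKM in at least 2 libraries) summed to 186 and 199 FPKM in biotin and 218 and 257 FPKM in untagged libraries. The blood markers PTPRC, CD3E, HBB and HBA1 were listed at 0 throughout. The blood list of 6 genes summed to 0.0829 and 0.0152 FPKM in the biotin libraries and to 0 in both untagged libraries.

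Most mitochondrial ribosomal protein mRNAs had lower values in the biotin pull-out, though fewer passed the test. Of the 74 tested genes, 23 fell and 4 rose (limma on log2(FPKM + 1), Benjamini-Hochberg adjusted p below 0.05, two-sided). Over all 9934 tested genes, 9.34% were lower and 13.2% higher by the same rule. The median log2 fold change of the 74 was -0.55, with quartiles of -0.75 and -0.19, against a median of -0.06 over all tested genes. A log2 fold change below 0 was found for 62 of the 74, against 55.4% of all tested genes. Both biotin libraries lay below both untagged libraries for 53 of the 74, against 37.7% of all tested genes, and above them for 8, against 29.4%. These are bulk libraries, in which fewer cells with a transcript, less of it per cell and less of it carried onto the beads cannot be told apart. Upper-quartile scaling gave 4 higher and 36 lower members (48.6% lower), and 13.9% of all tested genes were then lower. Of all calls 46.9% were then increases, against 58.5% without scaling. The calls rest on limma's shared estimate of the spread, since an exact permutation test with 2 libraries per group cannot go below p = 0.333. With either untagged library left out, 0 of the 74 passed in limma (3 higher and 34 lower at an unadjusted p below 0.05 without replicate 1, and 5 and 25 without replicate 2), and over all tested genes 195 and 319 were then called higher and 32 and 47 lower.

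**Figure D1:**
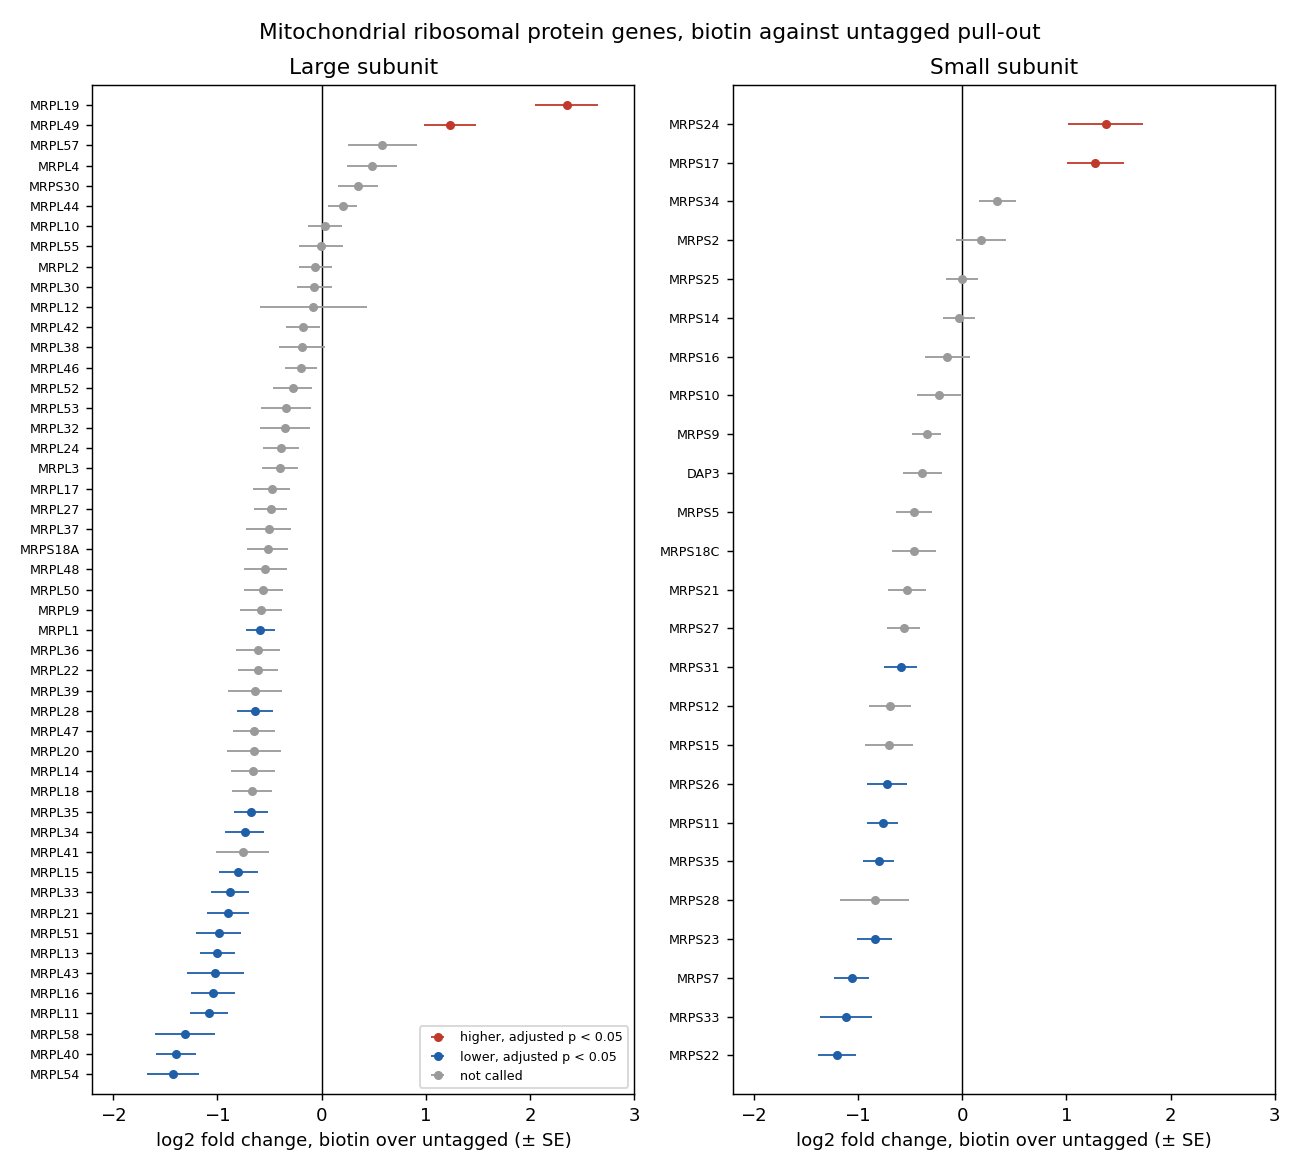
Log2 fold change (biotin over untagged, on the log2(FPKM + 1) scale) of the 74 tested genes, ordered within each ribosomal subunit, with bars of 1 SE from limma. Blue marks the 23 lower and red the 4 higher genes at an adjusted p below 0.05, and most grey points also lie left of 0.

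Few of these mRNAs held a match to the whole miR-26a seed in the 3′ UTR searched. The motif TACTTGA, the reverse complement, in DNA letters, of miR-26a nucleotides 2 to 8, was searched on the transcript strand in 3′ UTRs of GENCODE 29. It occurred in 5 of the 74 genes (6.76%), against 12.1% of 9456 tested coding genes. Their 3′ UTRs were shorter, with a median of 358 nt against 997 nt. The coding sequence held the motif in 1 gene (1.35%), MRPS5, against 6.69% of all searched. The motif without its first letter, a shorter match, occurred in the 3′ UTR of 15 of the 74 genes (20.3%), against 34.7% of all searched. The 4 sites of the whole motif that lie inside the deposited transcript's span mark the genes that such a match would single out. They are shown with their flanks, with the motif in capitals, 5′ to 3′ on the transcript strand (GENCODE 29, GRCh38).
MRPL1, chr4:77952695-77952724, plus strand: gttattgatcaTACTTGAaagtgaacttta
MRPL35, chr2:86211945-86211974, plus strand: taagcattgttTACTTGAagtgggcaggga
MRPL57, chr13:21177523-21177552, plus strand: taagtatgagaTACTTGAtgggggctttat
MRPS25, chr3:15050127-15050156, minus strand: tccctgtaggcTACTTGAtcctggatagtt

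None of the 4 genes with a printed site was called higher. Over all tested genes 13.2% were called higher and 9.34% lower, and 4 genes are too few to compare with these shares. MRPL1, of the large-subunit stalk that releases spent transfer RNA, was at 1.53 and 1.37 FPKM in biotin and 2.81 and 2.55 FPKM in untagged libraries and fell (log2 fold change -0.59 ± 0.14 SE, limma adjusted p = 0.0316). It had 37 and 44 estimated reads in the biotin libraries, the fewest of any tested member there. MRPL35 was at 1.37 and 1.70 FPKM in biotin and 2.74 and 3.40 FPKM in untagged libraries and also fell (-0.68 ± 0.16, adjusted p = 0.0300). Both lay lower in each biotin library than in either untagged library, as did 37.7% of all tested genes. MRPL57 was at 21.3 and 10.1 FPKM in biotin and 8.61 and 10.5 FPKM in untagged libraries, and MRPS25 at 1.76 and 2.2 FPKM in biotin and 2.13 and 1.81 FPKM in untagged libraries. The groups overlapped for both, and neither passed. Log2 fold changes were 0.58 ± 0.33 SE for MRPL57 (limma adjusted p = 0.243) and 0.0 ± 0.15 SE for MRPS25 (limma adjusted p = 0.988). The fifth gene, MRPL42, has its motif beyond the end of the deposited transcript and did not pass (-0.18 ± 0.16, adjusted p = 0.440). None of MRPL19, MRPS24, MRPS17 and MRPL49 had the motif in the 3′ UTR searched. For MRPL19 the transcript searched was 3479 nt long, less than the 7827 nt of the deposited one, so part of its 3′ UTR was not searched.

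Decreases were found in both subunits. In the large subunit, which holds the peptidyl transferase centre, 15 of 49 tested genes fell and 2 rose, with a median log2 fold change of -0.56. Within the small subunit, which reads the mRNA, 8 of 25 fell and 2 rose, with a median of -0.53. Genes of bacterial descent numbered 44, of which 12 fell and 3 rose (median -0.55), and of the other 30, mitochondria-specific proteins together with MRPS18A and MRPS30, 11 fell and 1 rose (median -0.55). Over all tested genes 9.34% were lower and 13.2% higher, with a median of -0.06. The difference between subunits or classes was not tested.

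Among large-subunit genes the lowest log2 fold changes belonged to mitochondria-specific proteins. MRPL54 was at 21.8 and 14.1 FPKM in the biotin libraries, against 52.8 and 45.5 FPKM in the untagged libraries (log2 fold change -1.43 ± 0.25 SE, limma adjusted p = 0.0133). MRPL40, a protein of the central protuberance, was at 11.8 and 10.1 FPKM in biotin and 33.0 and 28.2 FPKM in untagged libraries (-1.40 ± 0.19, adjusted p = 0.00549). MRPL58, a peptidyl-tRNA hydrolase built into the ribosome that can free stalled chains, was at 11.9 and 6.17 FPKM in biotin and 21.9 and 23.8 FPKM in untagged libraries (-1.31 ± 0.29, adjusted p = 0.0266). In each of these genes both biotin libraries were below both untagged libraries, as in 37.7% of all tested genes. These genes were picked by a test on the same values. MRPL43 fell to 29.5 and 19.1 FPKM in biotin libraries, against 43.1 and 56.0 FPKM in untagged libraries, and MRPL51 fell to 20.3 and 14.4 FPKM in biotin libraries, against 37.3 and 33.1 FPKM in untagged libraries. In the 4 leave-one-out fits MRPL40 kept its call 2 times and MRPL54, MRPL58, MRPL43 and MRPL51 1 time each.

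Of 29 tested large-subunit genes of bacterial descent, 10 fell (34.5%) and 1 rose. Over all tested genes 9.34% were lower and 13.2% higher. MRPL11, at the base of the stalk that receives translation factors, was at 7.46 and 8.52 FPKM in biotin and 16.5 and 19.4 FPKM in untagged libraries (log2 fold change -1.08 ± 0.18 SE, limma adjusted p = 0.0108). MRPL16, which lies near the transfer RNA sites, was at 9.99 and 7.15 FPKM in biotin and 17.0 and 20.1 FPKM in untagged libraries (-1.04 ± 0.21, adjusted p = 0.0203). MRPL13 averaged 6.74 ± 0.957 FPKM in biotin and 14.4 ± 0.491 FPKM in untagged libraries (SD, n = 2 each; limma adjusted p = 0.0122). In all 3 the highest biotin value lay under the lowest untagged value, as in 37.7% of all tested genes. The 3 were picked by a test on the same values. MRPL33, the most abundant of the genes that fell, was at 53.2 and 52.0 FPKM in biotin and 101 and 94.0 FPKM in untagged libraries (-0.88 ± 0.18, adjusted p = 0.0226). MRPL21 (-0.90), MRPL15 (-0.80), MRPL34 (-0.74), MRPL35 (-0.68), MRPL28 (-0.64) and MRPL1 (-0.59) completed the group, with limma adjusted p between 0.0265 and 0.0460. Of these 10, MRPL11, MRPL13 and MRPL16 each kept the call in 1 leave-one-out fit, and the other 7 in 0.

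In the small subunit, MRPS22 had the lowest value. This mitochondria-specific protein, mutated in an inherited respiratory chain disorder, was at 5.73 and 6.31 FPKM in biotin and 13.5 and 16.9 FPKM in untagged libraries (log2 fold change -1.20 ± 0.18 SE, limma adjusted p = 0.00812). MRPS33 was at 7.93 and 5.40 FPKM in biotin and 18.3 and 12.8 FPKM in untagged libraries (-1.11 ± 0.25, adjusted p = 0.0266). MRPS7, an rRNA-binding protein of the head of the subunit, was at 12.6 and 13.1 FPKM in biotin and 27.3 and 28.2 FPKM in untagged libraries (-1.06 ± 0.17, adjusted p = 0.00954). Replicates of MRPS7 lay close together in each group and the groups lay apart, but the gene was picked by a test on the same values. The remaining decreases were those of MRPS23 (-0.84), MRPS35 (-0.80), MRPS11 (-0.76), MRPS26 (-0.72) and MRPS31 (-0.59), with limma adjusted p between 0.0167 and 0.0456. MRPS22 and MRPS7 each kept the call in 1 leave-one-out fit, and the other 6 in 0. DAP3, a GTP-binding protein of the small subunit first known as a mediator of cell death, did not pass, at 12.4 and 9.53 FPKM in biotin and 14.2 and 14.7 FPKM in untagged libraries (-0.38 ± 0.19, adjusted p = 0.186).

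**Figure D2:**
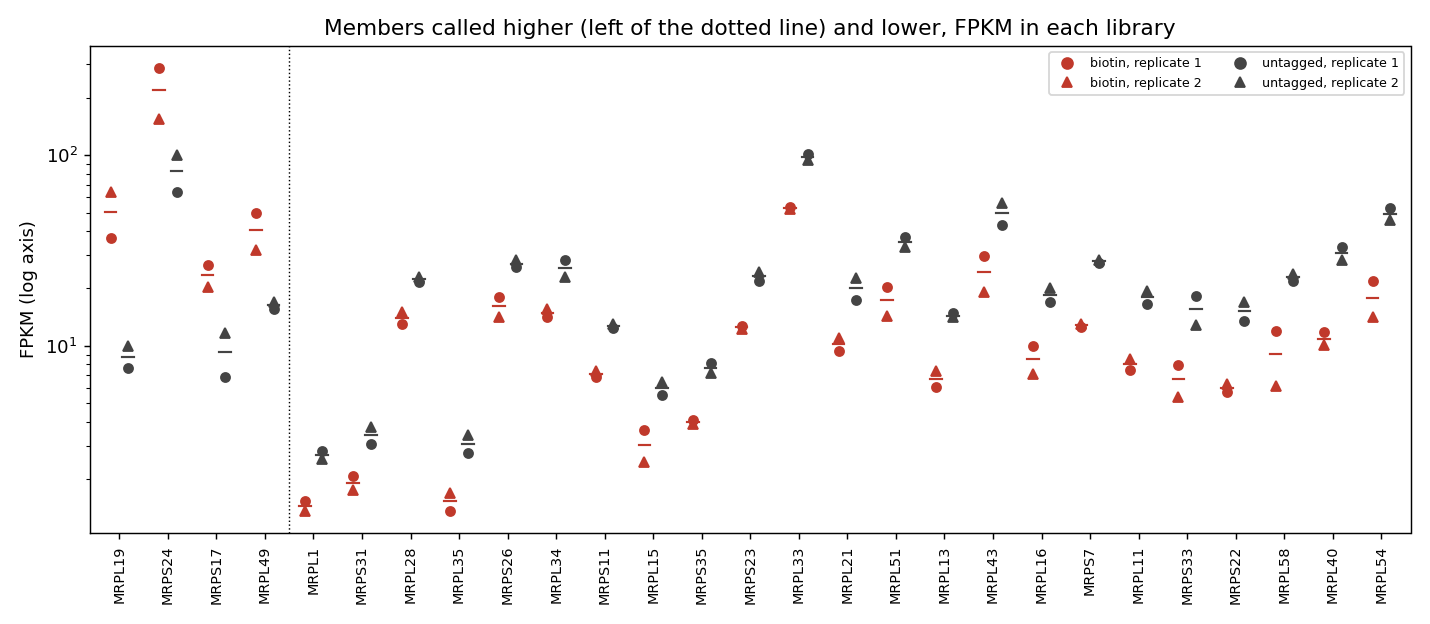
FPKM on a log axis in each library for the 27 genes that passed, with biotin left of untagged for each gene and short lines at the group means. The 4 genes that rose stand left of the dotted line. In all 27 the 2 groups do not overlap, but these genes were picked by a test on the same values. Over all tested genes, both biotin libraries lay below both untagged libraries for 37.7% and above them for 29.4%.

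Increases were found for 4 genes, 2 in each subunit. MRPL19, a large-subunit protein of bacterial type at the interface between the subunits, was at 36.7 and 64.4 FPKM in biotin and 7.65 and 9.93 FPKM in untagged libraries. Its log2 fold change was 2.35 ± 0.30 (SE, limma adjusted p = 0.00471), a ratio of 5.11 on the FPKM + 1 scale, and it kept the call in the 2 fits that left out a biotin library. MRPS24, the small-subunit counterpart of a bacterial head protein, was at 286 and 155 FPKM in biotin and 64.4 and 100.3 FPKM in untagged libraries (1.38 ± 0.36, adjusted p = 0.0409). Its replicates spread widely in both groups, and the lower biotin library lay above the higher untagged library by less than the gap between the biotin libraries. MRPS17, a small-subunit protein that binds rRNA, was at 26.4 and 20.4 FPKM in biotin and 6.86 and 11.7 FPKM in untagged libraries (1.28 ± 0.27, adjusted p = 0.0242). MRPL49, a mitochondria-specific protein of the large subunit, was at 49.5 and 31.7 FPKM in biotin and 15.7 and 17.0 FPKM in untagged libraries (1.23 ± 0.25, adjusted p = 0.0201). MRPS24 and MRPL49 kept the call in 1 leave-one-out fit each and MRPS17 in 0.

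MRPS24 had the highest mean over the 4 libraries, which its level in biotin libraries set, since in untagged libraries MRPL41 and MRPS12 averaged more. All 78 genes together summed to 1757 and 1440 FPKM in biotin and 1807 and 2034 FPKM in untagged libraries. Divided by the FPKM of all coding transcripts, these sums were 1.14% and 1.02% against 1.14% and 1.13%. The sums also hold noncoding transcripts of the genes, such as those of MRPL49. Without MRPS24, the sums were 1471 and 1286 FPKM in biotin and 1742 and 1934 FPKM in untagged libraries. Large-subunit genes summed to 1032 and 901.6 FPKM in biotin and 1248 and 1372 FPKM in untagged libraries, without overlap. Small-subunit genes summed to 724.2 and 538.7 FPKM in biotin and 558.9 and 662.2 FPKM in untagged libraries, which overlapped. MRPL41 and MRPS12 came next by the mean over the 4 libraries and first in untagged libraries, while in biotin libraries MRPS2 (mean 86.6 FPKM) lay above both. Neither MRPL41 nor MRPS12 passed. MRPL41, a mitochondria-specific protein also studied in cell death, averaged 72.8 ± 15.9 FPKM in biotin and 124 ± 25.3 FPKM in untagged libraries (SD, n = 2 each; limma adjusted p = 0.0762). MRPS12, a protein of the decoding centre, averaged 71.2 ± 1.78 FPKM in biotin and 116 ± 13.3 FPKM in untagged libraries (SD, n = 2 each; limma adjusted p = 0.0520).

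In hg38 coordinates the transcripts lay on chromosome 2 from 75646783 to 75662208 (MRPL19), chromosome 7 from 43866558 to 43869546 (MRPS24), chromosome 7 from 55951918 to 55955340 (MRPS17) and chromosome 11 from 65122183 to 65127369 (MRPL49, its main transcript). All 4 share exonic bases with another coding gene in GENCODE 29, as do 9 of the 23 genes that fell and 34 of the 74 tested. MRPS24 shares 606 bases with the read-through gene URGCP-MRPS24, which was listed at 0 in all libraries. MRPL49 shares 356 bases with SYVN1 on the opposite strand, and SYVN1 was listed at 0 in all 4 libraries. It also shares 282 bases with FAU, again on the opposite strand, which was at 81.1 and 42.6 FPKM in biotin and 180.2 and 208 FPKM in untagged libraries. All of the MRPL49 signal stood on 2 noncoding transcripts of the gene, and its coding transcript was listed at 0 in every library. MRPS17 shares 112 bases with NIPSNAP2 on the same strand, and 471 bases with the coding gene ENSG00000249773, and 4 pseudogenes are named after it. MRPL19 shares 132 bases with GCFC2 on the opposite strand. The counting's use of strand is not known from the labels, so reads of such neighbours cannot be told apart, and their part in these increases was not tested.

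The remaining 47 tested genes did not pass, with log2 fold changes from -0.84 (MRPS28) to 0.58 (MRPL57). Of these, 39 lay below 0 and 8 above. Several stood close to 0. MRPL10, a stalk protein, was at 12.8 and 13.0 FPKM in biotin and 12.3 and 12.9 FPKM in untagged libraries (log2 fold change 0.03 ± 0.16 SE). MRPL55 averaged 61.1 ± 10.3 FPKM in biotin and 61.0 ± 4.09 FPKM in untagged libraries (SD, n = 2 each), and MRPL2 was at 9.15 and 9.2 FPKM in biotin and 8.76 and 10.5 FPKM in untagged libraries. MRPL12, a stalk protein that also binds the mitochondrial RNA polymerase, had replicates too far apart to show a difference, at 13.2 and 7.39 FPKM in biotin and 5.76 and 18.8 FPKM in untagged libraries (-0.08 ± 0.51). MRPL4 was at 68.1 and 63.2 FPKM in biotin and 38.4 and 56.7 FPKM in untagged libraries (0.48 ± 0.24, limma adjusted p = 0.186). Its 2 main transcripts exchanged places between libraries: the longer was listed at 0 in 3 libraries and at 51.8 FPKM in untagged replicate 2, where the shorter was at 0.

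A pair of genes carries a small-subunit name but encodes proteins placed in the large subunit of the mammalian ribosome. MRPS30 was at 23.7 and 20.4 FPKM in biotin and 15.5 and 18.7 FPKM in untagged libraries (log2 fold change 0.35 ± 0.19 SE, limma adjusted p = 0.223). MRPS18A was at 11.9 and 9.06 FPKM in biotin and 14.2 and 16.6 FPKM in untagged libraries (-0.52 ± 0.20, adjusted p = 0.103). The groups did not overlap for either gene, in opposite directions, and neither passed. MRPS36, now named KGD4, encodes a component of the 2-oxoglutarate dehydrogenase complex and was not counted, and it stood at 0.390 and 0.458 FPKM in biotin and 1.56 and 0.905 FPKM in untagged libraries.

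Of the 78 genes, 4 failed the filter. MRPS18B, one of the small-subunit paralogues of bacterial S18, and MRPS6 were listed at 0 in every library with a status of OK. MRPS18B lies in the major histocompatibility region of chromosome 6 and appears in the tables once there and again on 6 alternate assemblies of that region. MRPS6 lies on chromosome 21 from 34073523 to 34143034 and shares its start with SLC5A3, which was at 4.67 and 5.33 FPKM in biotin and 4.74 and 4.99 FPKM in untagged libraries. MRPL45, which lines the tunnel exit and anchors the ribosome to the inner membrane, was at 0.0428 and 0.362 FPKM in biotin and 0.523 and 0.219 FPKM in untagged libraries. All of that signal stood on an alternate assembly of chromosome 17. MRPL23, at the tunnel exit, was at 0.262 and 0.474 FPKM in biotin and 0.163 and 0.718 FPKM in untagged libraries. These 4 genes were not tested for a difference, and a value of 0 listed with a status of OK need not mean that the transcript was absent.

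Transcript length moved with the difference between pull-outs. The main transcripts of the 74 tested genes ran from 411 nt (MRPL33) to 7827 nt (MRPL19), with a median of 1160.5 nt, against 2848 nt over all tested genes. Among all tested genes with a main transcript under 1000 nt, 31.7% were lower and the median log2 fold change was -0.49. From 1000 to under 2000 nt, 13.2% were lower and the median was -0.17, and from 2000 nt upward 5.46% were lower and the median was -0.01. In the same bins the mitochondrial ribosomal protein genes were lower in 8 of 24, 14 of 36 and 1 of 14 cases, with medians of -0.68, -0.54 and -0.16. Under 1000 nt the members' share of decreases was near that of all tested genes of this length. In the middle bin it was above that of all tested genes. The members' median was below that of all tested genes in every bin. The part of length in the result was not tested. Higher calls in these bins were 7.21%, 11.3% and 14.5% of all tested genes. Among the mitochondrial ribosomal protein genes they numbered 2, 0 and 2. MRPL19, the member with the largest increase, had the longest transcript, while MRPS17 (585 nt) and MRPS24 (696 nt), which also rose, lay in the shortest bin.

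**Figure D3:**
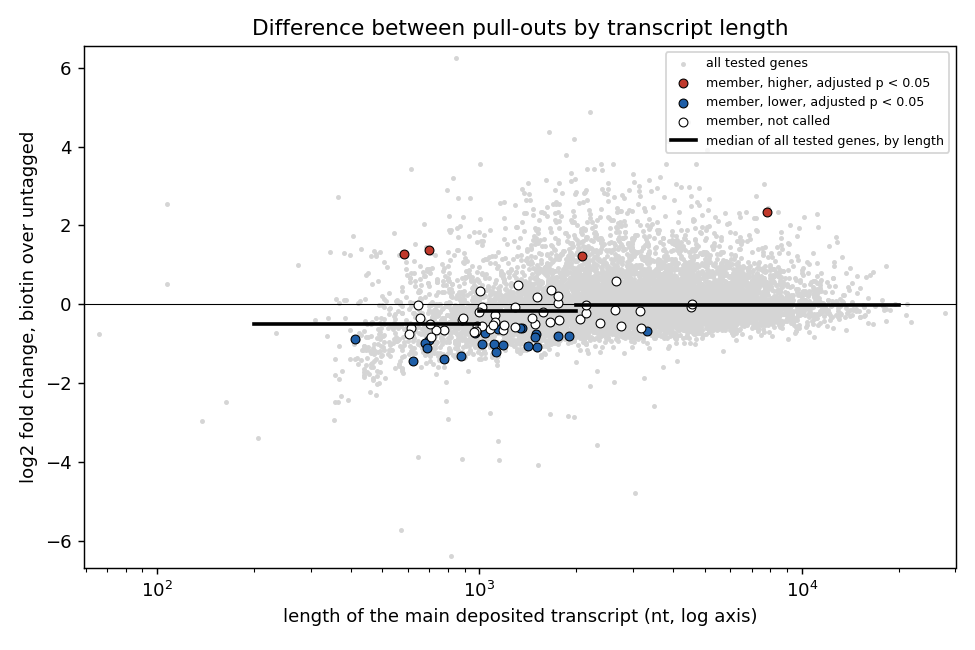
Log2 fold change (biotin over untagged) against the length of the main deposited transcript in nt, on a log axis, for all tested genes in grey and the 74 mitochondrial ribosomal protein genes as outlined points (red higher, blue lower, white not called). Black lines give the median of all tested genes at -0.49 under 1000 nt, -0.17 up to 2000 nt and -0.01 above.

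Lists of genes that build or serve the mitochondrial ribosome held few calls, and the counts are read against all tested genes, of which 13.2% were higher and 9.34% lower with a median log2 fold change of -0.06. Of 4 ribosomal subunits with other names (AURKAIP1, CHCHD1, PTCD3 and GADD45GIP1), 0 passed in limma (1 higher and 0 lower at an unadjusted p below 0.05), with a median log2 fold change of -0.17. PTCD3, a pentatricopeptide protein of the small subunit, was the one nearest to passing, at 4.79 and 5.90 FPKM in biotin and 3.55 and 3.41 FPKM in untagged libraries (0.50 ± 0.16, limma adjusted p = 0.0646). Assembly factors numbered 23 tested, of which 3 rose (13.0%) and 3 fell (13.0%), with a median of -0.06, close to the shares and median of all tested genes. RPUSD4, a pseudouridine synthase acting on mitochondrial RNA, was at 36.3 and 25.5 FPKM in biotin and 4.52 and 3.82 FPKM in untagged libraries (2.61 ± 0.22, adjusted p = 0.00121). METTL17, which binds the maturing small subunit, was at 114 and 96.4 FPKM in biotin and 19.2 and 21.4 FPKM in untagged libraries (2.32 ± 0.19, adjusted p = 0.00124). RPUSD4 and METTL17 kept their calls in all 4 leave-one-out fits. MPV17L2, an inner-membrane factor of ribosome assembly, was at 64.6 and 33.9 FPKM in biotin and 5.86 and 17.8 FPKM in untagged libraries (2.08 ± 0.51, adjusted p = 0.0352).

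The 3 assembly factors that fell were NGRN, needed for the large-subunit rRNA (log2 fold change -0.94 ± 0.22 SE), NOA1, a GTPase (-0.72 ± 0.19), and MALSU1, which guards the large subunit against early joining (-0.71 ± 0.19), with limma adjusted p between 0.0322 and 0.0452. The main transcript of NGRN was a noncoding one. When only coding transcripts were counted, NGRN did not pass the filter and was not fitted. Among 14 translation factors 2 rose (14.3%, against 13.2% of all tested genes) and 0 fell in limma (2 lower at an unadjusted p below 0.05). These were MRRF, the ribosome recycling factor, at 15.1 and 13.6 FPKM in biotin and 7.57 and 7.01 FPKM in untagged libraries (0.89 ± 0.16, adjusted p = 0.0149), and MTFMT, which formylates the initiator transfer RNA (0.88 ± 0.21, adjusted p = 0.0314). Of 15 genes of mitochondrial DNA expression 2 fell (13.3%, against 9.34% of all tested genes) and 0 rose in limma (4 higher at an unadjusted p below 0.05). SLIRP, an RNA-binding partner of LRPPRC with a transcript of 411 nt, was at 256 and 259.8 FPKM in biotin and 456 and 534 FPKM in untagged libraries (-0.93 ± 0.20, adjusted p = 0.0238). SUPV3L1, an RNA helicase of the mitochondrial degradation machinery, fell by 0.55 ± 0.14 (adjusted p = 0.0373). MPV17L2, NGRN, NOA1, MALSU1, MRRF, MTFMT, SLIRP and SUPV3L1 lost the call in each leave-one-out fit.

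The cytoplasmic ribosome and the respiratory chain were set beside the mitochondrial ribosome. Of 71 tested cytoplasmic ribosomal protein genes 50 fell and 1 rose, with a median log2 fold change of -1.04 and a median transcript length of 719 nt. Nuclear-encoded oxidative phosphorylation genes, many of whose partners the mitochondrial ribosome makes, fell in 29 of 73 cases and rose in 2, with a median of -0.62 and a median length of 806 nt. Summed over all their transcripts and divided by the FPKM of coding transcripts, cytoplasmic ribosomal protein genes stood at 11.4% and 11.2% in biotin and 18.2% and 19.7% in untagged libraries. Over all tested genes 9.34% were lower and 13.2% higher. The difference between these lists was not tested.

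**Figure D4:**
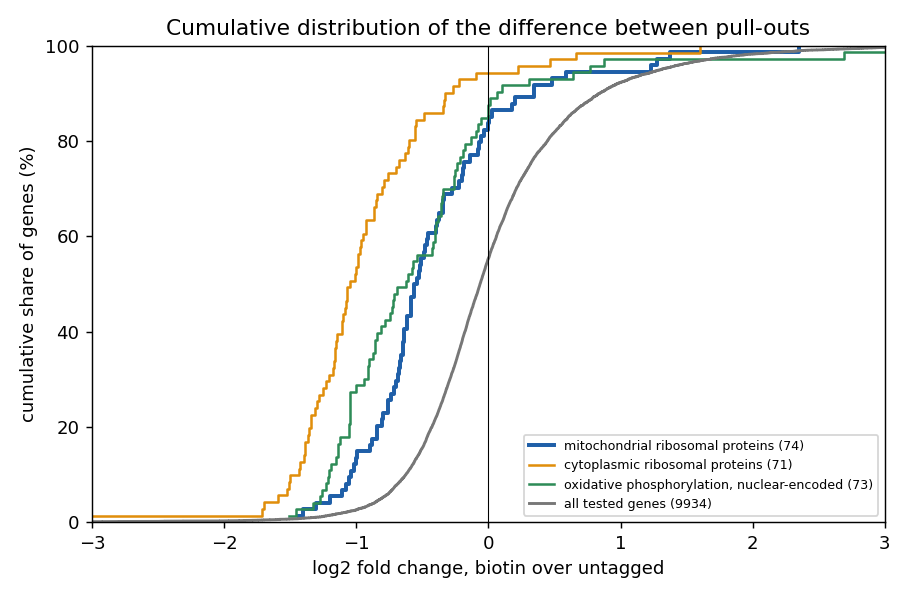
Cumulative share of genes in percent against log2 fold change (biotin over untagged), with values beyond the ends of the axis not drawn, for the 74 mitochondrial ribosomal protein genes, 71 cytoplasmic ribosomal protein genes, 73 oxidative phosphorylation genes and all 9934 tested genes. Over most of its course the mitochondrial curve (median -0.55) runs between those of the cytoplasmic ribosome (-1.04) and all genes (-0.06).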

How the data were processed

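Build hg38, TopHat2 2.0.9, Cufflinks 2.1.1, Cuffdiff, cutadapt and FastQC 0.10.1 are named in the submitters' processing notes. What each did, with which annotation and whether by strand, is not given in the sources used here. The authors deposited a table per library whose expression values are FPKM, per the file headers. Per the file headers the tables also give coverage, used here only to estimate depth and reads per gene, and transcript length as another unit.

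RefSeq accessions were given symbols from the RefSeq gene table or GENCODE 29 (98.7% of 46699 accessions), and FPKM was summed per gene. Genes with a failed or excess-data row (22) and short structured RNA genes were left out, and tested genes had at least 1 FPKM in at least 2 libraries. The test was limma 3.58.1 (R 4.3.3; variance trend, pseudocount 1, no scaling, 2 residual and 4.2 prior degrees of freedom). The procedure was also run on simulated data with independent noise, whose outcome is not reported here and which does not test these calls. A pseudocount understates fold changes of low genes. Estimated reads per tested member had medians of 266 and 311 in biotin and 373 and 436 in untagged libraries, with lowest values of 37 and 44 and of 58 and 45. They take the whole transcript as countable and so overstate short transcripts, and precision is limited for genes near the lowest values.

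The members and gene lists were chosen with earlier results of these data known. Named genes were every member past the threshold, the 5 highest and 5 lowest values, the 3 members with the highest mean FPKM over all libraries, DAP3, MRPS18A, MRPS30 and MRPS36, and called genes of the related lists. MRPL2, MRPL4, MRPL10, MRPL12, MRPL42, MRPL55, MRPS2, MRPS5, MRPS25, MRPS28, PTCD3 and the genes overlapping members were added after their values were seen. MRPS36 is listed under its newer symbol and is no member. Alternatives were pseudocounts of 0.1 and 5, other filters, 3 scalings, no variance trend, single transcripts, a replicate block, each library left out and, chosen after seeing the data, coding accessions only.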

Additional observations from a re-analysis of the deposited data

How the results depend on the processing

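The main counts were 4 higher and 23 lower among 74 members and 1307 higher and 928 lower among all tested genes, and the members' median was -0.55. That median was below 0 under every alternative run, and its difference from the median of all genes ran from -0.53 to -0.33. With a pseudocount of 5 it was -0.37. No gene named by the rule changed direction where it was fitted. Under upper-quartile scaling 36 members were lower and 46.9% of all calls were increases (1225 higher and 1385 lower), against 58.5% in the comparison as reported. Quantile normalization gave 4 higher and 34 lower members (1277 and 1217 of all genes). Median-of-ratios scaling gave 4 and 20 (1483 and 757 of all genes). With no filter on low values 1 member was higher and 8 were lower (653 and 231 of all genes), and with single transcripts 1 and 3 (425 and 157 of all genes). With coding accessions only, chosen after seeing the data, 2 members were higher, because MRPL49 then had no signal and MRPS24 no longer passed. With a library left out, 0 to 3 members were higher and 0 to 6 lower, their median ran from -0.60 to -0.44, and all genes gave 195 to 678 higher and 32 to 221 lower. A group left with 1 library was assumed to vary like the other. The cause of these changes was not tested.

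With the replicate number as a block 2 members were higher and 15 lower, and 542 of all genes were lower. The libraries share only a number: across tested genes, the difference between replicates of the biotin group and that of the untagged group correlated at 0.02. Under 3 scalings all 4 increases kept their call, and of the 23 decreases 23 did under upper-quartile scaling, 20 under median-of-ratios scaling and 23 under quantile normalization. At these depths 3 reads on 1 kb correspond to 0.171 and 0.127 FPKM in biotin and 0.187 and 0.168 FPKM in untagged libraries, which covers counting error only.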
